A study of Triticum aestivum with 6 samples.

Results

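Transcripts of dehydrins and other late embryogenesis abundant (LEA) proteins were examined in roots of bread wheat, Triticum aestivum, 3 hours after nitrate was given to nitrogen-starved seedlings. A gene was included when the first protein name of its best UniProt match contained dehydrin, LEA, cold-regulated protein or cold-shock protein CS, with hydroxyproline-rich proteins and kinases left out. This gave 121 of the 83219 genes in the deposited table, spread over 27 best matches. A name below means that the gene resembles that protein, from wheat or another species, and is not a curated wheat symbol. The series holds 2 groups of 3 root libraries, all of the wild type JW1. In the 2N group the seedlings stood for 3 hours in medium with 2 mM of a potassium salt that the labels write as KNO, which gave 2 mM nitrate. In the 0N group they stood for the same 3 hours with 2 mM KCl and no nitrate. Both groups had germinated for 3 days, lost their endosperm, grown for 3 days with 2 mM nitrate and then spent 2 days without nitrogen. Chloride was added where nitrate was not, so the 2 ions cannot be told apart as the source of a difference. Replicates carry the numbers 1 to 3 in each group. Because no label tells whether they were grown separately, the p-values below reflect sample-to-sample spread that may be technical.

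LEA proteins are hydrophilic, largely unstructured proteins that build up late in seed development and, in vegetative tissue, under water deficit, cold and abscisic acid (ABA). Dehydrins form group 2 of the LEA proteins and carry a lysine-rich K-segment that can fold at membrane surfaces. Other LEA families are defined by their own repeats or domains, and the cold-regulated proteins of barley in the search were named for induction by low temperature.

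Most of the 121 genes were silent or nearly so in these roots, and a few were abundant. No read was counted in any library for 32 genes, and 69 had fewer than 10 reads over all 6 libraries. A count of 0 allows up to 3 counts per library, which is 0.175 to 0.181 CPM (counts scaled by library size), for counting error only. By contrast, 19 genes averaged over 100 TPM (a level scaled by transcript length and library), and these 19 made up 95.5% of the summed TPM of the 121 genes. The 10 most abundant genes held 74.7% of that sum. Read support did not always follow TPM. The cold-regulated gene TraesCS2D02G461100 averaged 393 TPM on 770 reads over all libraries. The dehydrin gene TraesCS6B02G383200 averaged 6.4 TPM on 799 reads. A high TPM on few reads rests on the transcript length used in scaling, which was not examined. Ordered by mean TPM over the 6 libraries, the first was a gene similar to HIRD11 on chromosome 4D, a histidine-rich dehydrin that binds metal ions in Arabidopsis, at 920 ± 21.5 TPM in 2N and 849 ± 58.8 TPM in 0N (SD, n = 3 each). Next came the LEA gene similar to At5g17165 on 2D, at 616 ± 55.98 TPM in 2N and 859 ± 15.3 TPM in 0N. The gene similar to COR410 on 6B, an acidic wheat dehydrin found near the plasma membrane in the cold, had 819 ± 21.5 TPM in 2N and 546 ± 37.9 TPM in 0N. In 0N the HIRD11 and At5g17165 genes did not differ beyond their spread, while in 2N the 3 genes stood apart from one another.

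**Figure D1:**
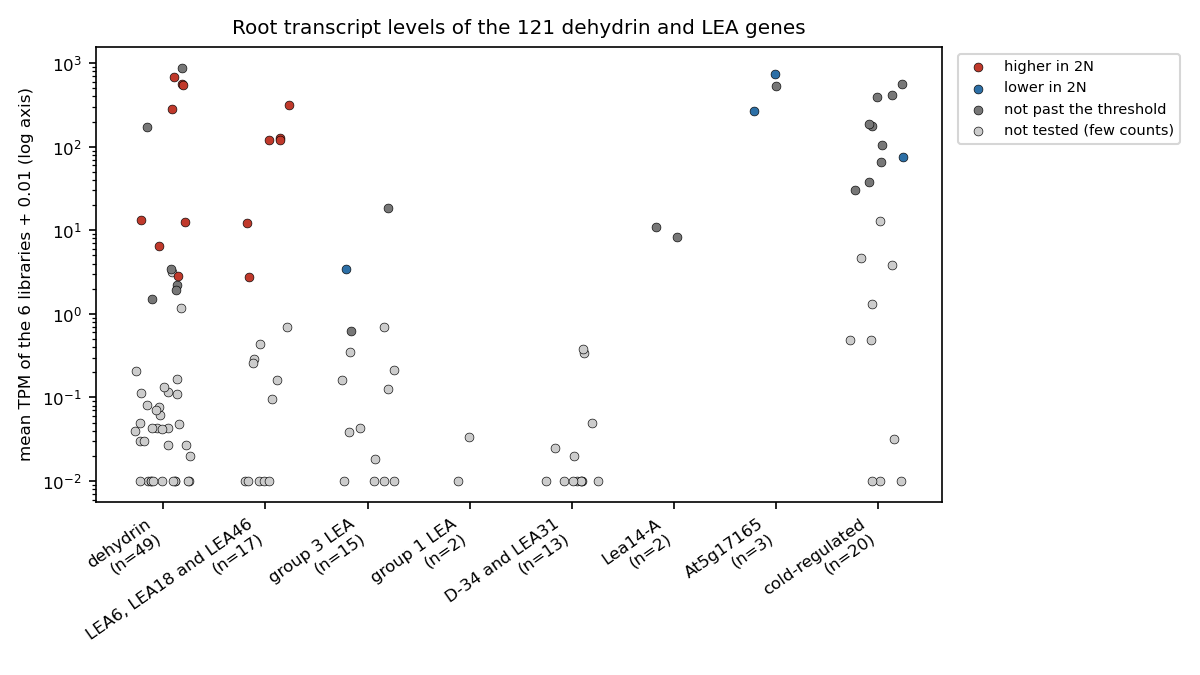
Each point is 1 of the 121 genes, placed by class along the horizontal axis and by its mean TPM over the 6 libraries plus 0.01 on a log vertical axis. The colour gives the call for 2N against 0N. The points at the bottom of the plot are the 32 genes without a read, and the 19 genes over 100 TPM lie in the dehydrin, LEA6, At5g17165 and cold-regulated classes.

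By class, the 49 dehydrin genes summed to 3602 ± 97.4 TPM in 2N, against 2790 ± 188 TPM in 0N. They held 45.2% of the summed TPM of all 121 genes in 2N and 39.1% in 0N. The 20 cold-regulated genes summed to 2074 ± 115 TPM in 2N and 2065 ± 106 TPM in 0N. In CPM, which takes no account of length, they summed to 255 ± 11.5 in 2N and 258 ± 9.03 in 0N. The dehydrins summed to 3018 ± 97.0 CPM in 2N and 2081 ± 220 CPM in 0N. By CPM the cold-regulated class thus ranked lower than by TPM. Summed levels of the 3 genes similar to At5g17165 were 1329 ± 152 TPM in 2N and 1761 ± 107 TPM in 0N. For the 17 genes similar to LEA6, LEA18 or LEA46, one family of small LEA proteins in Arabidopsis, the sum was 929 ± 63.8 TPM in 2N and 481 ± 64.4 TPM in 0N. The other classes were low. The 15 genes of group 3, whose proteins are built from short tandem repeats, summed to 24.0 ± 4.20 TPM in 2N and 24.4 ± 1.69 TPM in 0N. None of the 13 genes similar to cotton D-34 or to Arabidopsis LEA31, both of the seed maturation family, nor of the 2 similar to the group 1 protein B19.1A had enough counts for a test. These sums are descriptions without a test.

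For the comparison of 2N with 0N, 38 of the 121 genes passed the filter on low counts, and 35 of these exceeded its minimum in all 6 libraries. Of the others, 2 met the filter through a single group, which for the CS120 gene TraesCS6D02G332500 was 2N, the group where it was high. In edgeR's quasi-likelihood test at an adjusted p under 0.05, 14 of the 38 rose in 2N and 4 fell, while 20 did not pass. Setting aside the 2 genes that passed the filter through a single group, 13 of 36 rose. The 14 make 36.8% of the tested genes, against 7.57% of all 54313 tested genes of the table that rose. They comprise 6 genes similar to LEA6, 4 to CS120, 3 to COR410 and 1 to HIRD11. Related copies can share reads, so these are not 14 independent results. The 4 that fell make 10.5%, near the 7.93% of all tested genes that fell. In 23 of the 38 genes, or 60.5%, the 3 libraries of 2N did not overlap the 3 of 0N in CPM, against 32.4% of all tested genes. The 18 called genes were all among these 23. A log2 fold change above 0 was found in 23 of the 38 genes, against 50.7% of all tested genes. The median log2 fold change of the 38 genes was 0.22, beside 0.00 for all tested genes. It was 0.13 with library totals, 0.12 without the filter, and 0.47 without the cold-regulated genes. Over all genes, 4109 rose and 4306 fell, so that 48.8% of the calls were rises, a share that was 32.0% when libraries were scaled by their totals alone and 31.1% with limma on TPM. The median over all genes moved by -0.09 and -0.08 under these scalings. The count of LEA and dehydrin genes that fell rested on single libraries. It was 2 when 0N replicate 1, 0N replicate 3 or 2N replicate 3 was left out, and 1 when 2N replicate 1 was.

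**Figure D2:**
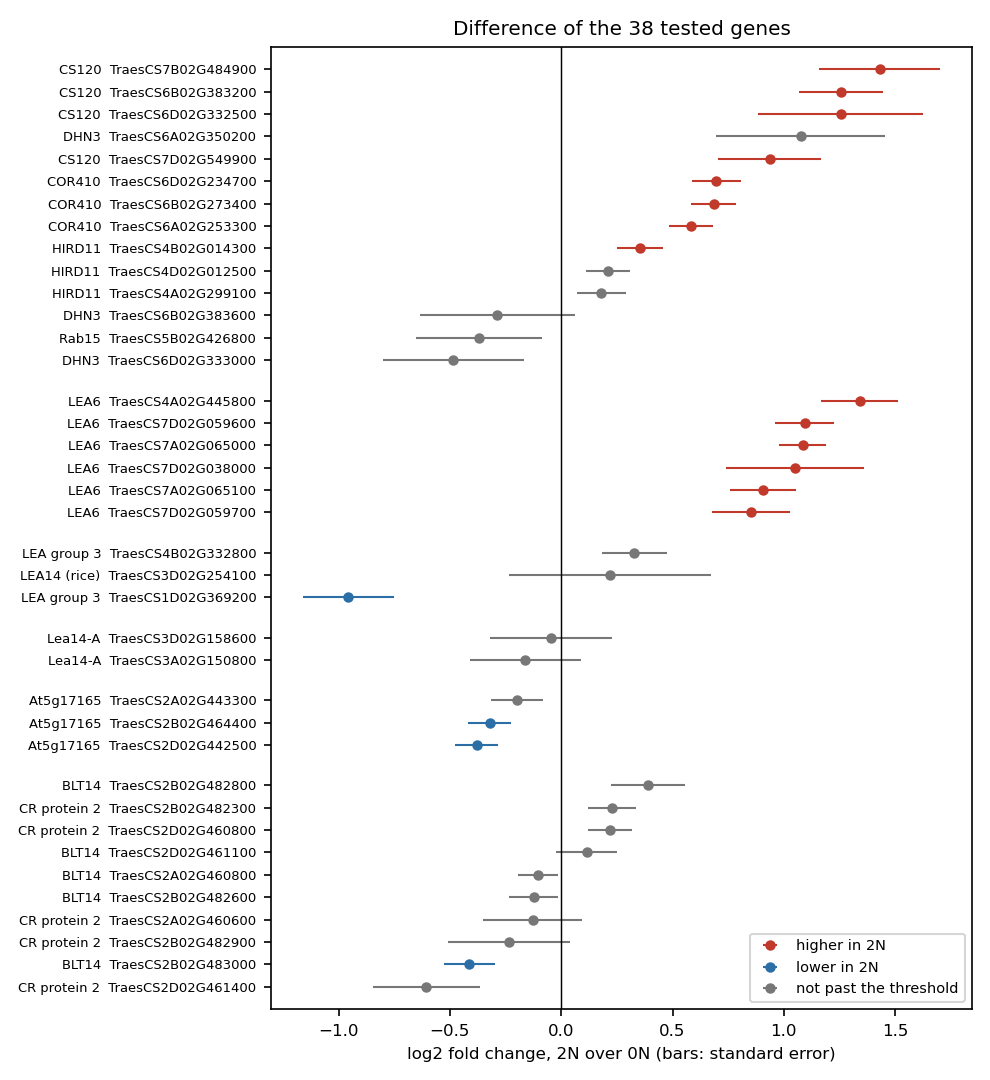
Log2 fold changes of 2N over 0N for the 38 tested genes, grouped by class, with bars for the standard error and colours for the call. The tested genes similar to COR410, CS120 and LEA6 lie to the right of 0, those similar to At5g17165 to the left, and the cold-regulated genes on both sides.

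The 3 genes similar to COR410 rose in 2N and carried the most reads of the dehydrins. The gene on chromosome 6B, TraesCS6B02G273400, had 910.0, 872 and 869 CPM in 2N replicates 1 to 3, against 494, 604 and 551 CPM in 0N. Its lowest 2N library lay above its highest 0N library, and the log2 fold change was 0.68 ± 0.10 (SE, adjusted p = 0.000282, edgeR). TraesCS6D02G234700 on 6D had 863, 819.9 and 751 CPM in 2N and 445, 569.6 and 487 CPM in 0N, a log2 fold change of 0.70 ± 0.11 (adjusted p = 0.000499, edgeR). TraesCS6A02G253300 on 6A had 409.8, 400.1 and 380.5 CPM in 2N and 237, 289.6 and 268 CPM in 0N, a log2 fold change of 0.58 ± 0.10 (adjusted p = 0.000957, edgeR). None of the 3 overlapped between the groups, and in each the highest 0N library was 0N replicate 2. These calls were kept in the 12 alternative settings tried, with adjusted p of at most 0.00602 for the 6A gene, 0.00262 for the 6B gene and 0.00352 for the 6D gene. Together the 3 genes had 2092 ± 91.1 CPM in 2N and 1315 ± 143 CPM in 0N. Reads of such near-identical copies can be divided wrongly, and the counts of all 3 were partly fractional, so the sum is firmer than its division. In whole roots, more cells expressing a gene and more transcript per cell cannot be told apart, here and in all results that follow.

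CS120 is a large wheat dehydrin that accumulates in the cold. Of 7 genes similar to it, 4 could be tested and these 4 rose, at much lower levels than COR410. TraesCS6B02G383200 had 11.1, 8.79 and 13.7 CPM in 2N against 5.23, 5.25 and 3.58 CPM in 0N, with a log2 fold change of 1.26 ± 0.19 (adjusted p = 0.000569, edgeR). TraesCS7B02G484900 had 2.82, 1.86 and 2.90 CPM in 2N against 1.13, 0.904 and 0.764 CPM in 0N. Its log2 fold change of 1.43 ± 0.27 was the highest among the 38 tested genes (adjusted p = 0.00215, edgeR), on 174 reads over all libraries. TraesCS7D02G549900 had 10.4, 5.35 and 6.83 CPM in 2N against 4.46, 3.86 and 3.47 CPM in 0N, and its 2N replicates spread more widely than those of 0N. Its log2 fold change was 0.94 ± 0.23 (adjusted p = 0.0175, edgeR). This call was lost when 0N replicate 2 (adjusted p = 0.0744) or 0N replicate 3 (0.0735) was left out and with limma on TPM (0.0519), within a range of 0.000914 to 0.0744 over the alternatives. TraesCS6D02G332500 had 1.32, 0.756 and 1.51 CPM in 2N against 0.357, 0.543 and 0.587 CPM in 0N, on 85 reads in all, and it entered the test through its 2N libraries. The log2 fold change was 1.25 ± 0.37 (adjusted p = 0.0328, edgeR). Leaving out 0N replicate 1 (adjusted p = 0.138), 0N replicate 2 (0.0698), 0N replicate 3 (0.0579), 2N replicate 1 (0.104) or 2N replicate 3 (0.151) ended this call, as did DESeq2 (0.112), within a range of 0.0112 to 0.151. The other 2 CS120 calls were kept wherever the genes were tested. Summed over the 7 genes, CS120 averaged 23.1 ± 5.13 CPM in 2N, against 10.3 ± 1.52 CPM in 0N.

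The 3 genes similar to HIRD11 were abundant and differed by smaller steps. TraesCS4B02G014300 had 319.7, 308 and 331 CPM in 2N against 228, 284 and 239 CPM in 0N. It rose by a log2 fold change of 0.35 ± 0.10 (adjusted p = 0.0305, edgeR), and the groups did not overlap. This was the least stable of the calls on an abundant dehydrin. It was lost on leaving out 0N replicate 1 (adjusted p = 0.124), 0N replicate 3 (0.11), 2N replicate 1 (0.0829) or 2N replicate 3 (0.127), with library totals (0.0801) and with limma on TPM (0.0861), within a range of 0.00549 to 0.127. TraesCS4D02G012500, the most abundant of the 121 genes by mean TPM, had 582, 549 and 569 CPM in 2N against 445, 542 and 482 CPM in 0N. The groups did not overlap, but 2N replicate 2 and 0N replicate 2 lay close together, and the log2 fold change of 0.21 ± 0.10 did not pass (adjusted p = 0.184, edgeR). TraesCS4A02G299100 had 11.0, 10.9 and 11.4 CPM in 2N against 10.5, 9.16 and 9.69 CPM in 0N, a log2 fold change of 0.18 ± 0.11 that did not pass either (adjusted p = 0.324, edgeR).

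The remaining dehydrins are best known from cereal seedlings under drought, where DHN1 to DHN4 and the Rab proteins respond to ABA. In these roots they were rare. Of 11 genes similar to DHN3, 3 were tested and these did not pass. TraesCS6A02G350200 had 2.94, 1.51 and 2.36 CPM in 2N against 0.832, 1.81 and 0.587 CPM in 0N. Here 0N replicate 2 lay above 2N replicate 2, and the log2 fold change of 1.07 ± 0.38 missed the threshold (adjusted p = 0.0838, edgeR). It passed when 0N replicate 2 (adjusted p = 0.0092) or 2N replicate 2 (0.031) was left out, within a range of 0.0092 to 0.261. The other two DHN3 genes had log2 fold changes of -0.29 ± 0.35 and -0.48 ± 0.32. The single tested gene similar to Rab15 of wheat, TraesCS5B02G426800, had 0.841, 0.815 and 0.968 CPM in 2N against 1.13, 1.21 and 1.06 CPM in 0N. Its groups did not overlap, yet at 101 reads the log2 fold change of -0.37 ± 0.28 did not pass (adjusted p = 0.449, edgeR). The genes similar to DHN1, DHN2, DHN4 and rice Rab25 had too few counts for a test. The highest summed level among these 4 kinds was 0.277 ± 0.181 CPM, for DHN2 in 0N.

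**Figure D3:**
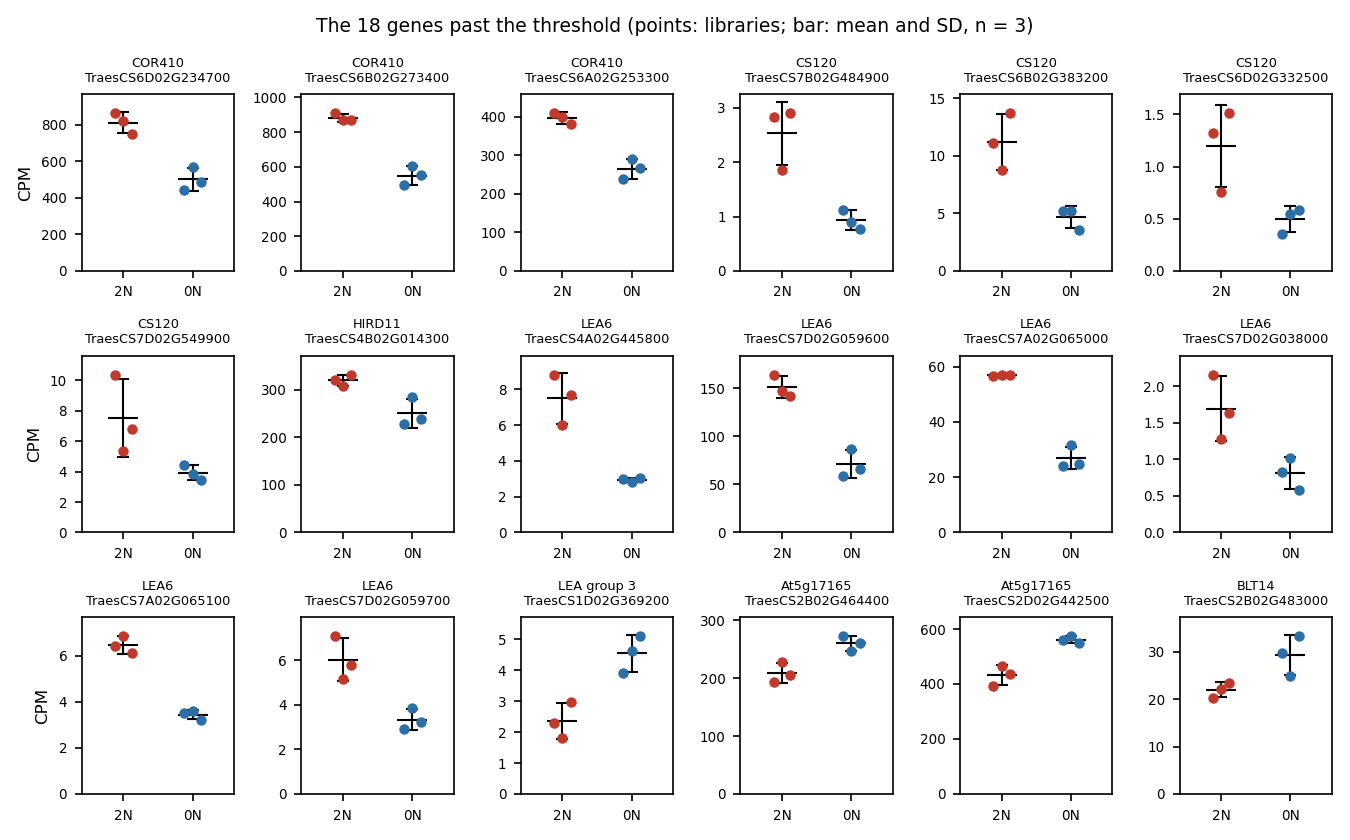
CPM of the 18 genes past the threshold, with 1 point per library, 2N on the left and 0N on the right of each panel, a bar for the mean and its SD (n = 3), and a vertical axis that starts at 0. In the 14 genes that rose, all 2N points lie above all 0N points, and in 10 of the 14 the highest 0N point is replicate 2.

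LEA6 of Arabidopsis belongs to a family of small LEA proteins, LEA_1, whose members protect enzymes from drying in vitro. All 6 tested genes similar to it rose in 2N, each by 1.81-fold to 2.53-fold. TraesCS7D02G059600 was the most abundant, with 164, 147 and 142 CPM in 2N against 59.1, 87.2 and 66.1 CPM in 0N. Its log2 fold change was 1.09 ± 0.13 (adjusted p = 8.52e-05, edgeR), and 0N replicate 2 was the highest of the 0N libraries. TraesCS7A02G065000 had 56.6, 57.1 and 57.1 CPM in 2N against 24.2, 31.5 and 24.9 CPM in 0N. Its 3 2N libraries were nearly equal, and the log2 fold change of 1.08 ± 0.11 had the smallest adjusted p of the 38 genes (7.95e-06, edgeR). Each of these genes has a neighbour with the next identifier on the same chromosome. TraesCS7A02G065100 had 6.43, 6.87 and 6.11 CPM in 2N against 3.51, 3.62 and 3.23 CPM in 0N (log2 fold change 0.91 ± 0.15, adjusted p = 0.000689, edgeR). TraesCS7D02G059700 had 7.09, 5.18 and 5.81 CPM in 2N against 2.91, 3.86 and 3.23 CPM in 0N (log2 fold change 0.85 ± 0.18, adjusted p = 0.00385, edgeR). Neither overlapped between groups. Although they drew far fewer reads than their neighbours, per length these 2 genes reached 166 ± 16.2 and 154 ± 24.7 TPM in 2N. In 0N they had 90.5 ± 4.41 and 87.7 ± 14.4 TPM. The neighbour on 7A, TraesCS7A02G065000, had 161 ± 2.58 TPM in 2N and 80.5 ± 9.62 TPM in 0N. The neighbour on 7D, TraesCS7D02G059600, had 425 ± 34.3 TPM in 2N and 211.5 ± 37.5 TPM in 0N. Levels per length were thus similar in the 7A pair only, although reads differed widely in both pairs. Such a high TPM on few reads rests on the transcript length used in scaling. These lengths were not examined, so the similarity within the 7A pair is uncertain.

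TraesCS4A02G445800 lies on chromosome 4A, which carries a segment translocated from 7B in bread wheat. It had 8.83, 5.99 and 7.68 CPM in 2N against 2.97, 2.83 and 3.05 CPM in 0N. The 0N libraries agreed closely, and the log2 fold change was 1.34 ± 0.17 (adjusted p = 8.94e-05, edgeR). TraesCS7D02G038000 was the rarest of the 6, with 2.16, 1.28 and 1.63 CPM in 2N against 0.832, 1.02 and 0.587 CPM in 0N (log2 fold change 1.05 ± 0.31, adjusted p = 0.033, edgeR). On its 126 reads this call was lost on leaving out 0N replicate 1 (adjusted p = 0.0912), 0N replicate 3 (0.125), 2N replicate 1 (0.154) or 2N replicate 3 (0.0768) and with DESeq2 (0.105), within a range of 0.0176 to 0.154. The other 5 calls were kept in all 12 alternatives. The 11 genes similar to LEA6 summed to 230 ± 13.5 CPM in 2N and 108 ± 19.3 CPM in 0N, with 5 of them untested. The 3 genes similar to LEA18 had no read in any library, and the 3 similar to LEA46 summed to 0.358 ± 0.0662 CPM in 2N and 0.693 ± 0.185 CPM in 0N, too few for a test.

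Genes similar to At5g17165, a LEA-like protein of Arabidopsis known mainly by its locus, were the LEA genes that fell at a high level. TraesCS2D02G442500 had 392.1, 465 and 437 CPM in 2N against 559, 574 and 549 CPM in 0N. All 2N libraries lay below all 0N libraries, and it fell by 0.38 ± 0.10 on the log2 scale (adjusted p = 0.0153, edgeR). The call was lost when 2N replicate 1 (adjusted p = 0.0985) or 2N replicate 3 (0.0671) was left out, within a range of 0.00205 to 0.0985. TraesCS2B02G464400 had 193, 227 and 205 CPM in 2N against 273, 247 and 261 CPM in 0N, and fell by 0.32 ± 0.10 (adjusted p = 0.0359, edgeR). That call was lost on leaving out 0N replicate 1 (adjusted p = 0.0962), 0N replicate 3 (0.0705), 2N replicate 1 (0.168) or 2N replicate 3 (0.142), within a range of 0.00739 to 0.168. TraesCS2A02G443300 had 314.5, 417 and 342 CPM in 2N against 455, 395 and 380.1 CPM in 0N. Its groups overlapped through 2N replicate 2, and its log2 fold change of -0.20 ± 0.12 did not pass (adjusted p = 0.306, edgeR). Summed over the 3 copies, they had 997 ± 106 CPM in 2N, against 1231 ± 50.0 CPM in 0N.

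Few group 3 LEA genes were expressed. The tested pair similar to the wheat group 3 protein were TraesCS1D02G369200 and TraesCS4B02G332800. TraesCS1D02G369200 had 2.28, 1.80 and 2.96 CPM in 2N against 3.92, 4.64 and 5.11 CPM in 0N. The groups did not overlap, and it fell by 0.96 ± 0.20 on the log2 scale (adjusted p = 0.00498, edgeR), a call kept in all 12 alternatives with adjusted p of at most 0.0222. TraesCS4B02G332800 had 14.2, 10.4 and 9.86 CPM in 2N against 8.62, 8.86 and 9.93 CPM in 0N. Its 2N replicate 3 lay below 0N replicate 3, and the log2 fold change of 0.33 ± 0.14 did not pass (adjusted p = 0.152, edgeR). The third tested gene, similar to rice LEA14, had 52 reads in all and a log2 fold change of 0.22 ± 0.45. Lea14-A of cotton belongs to the LEA_2 family, whose proteins are folded and less hydrophilic than other LEA proteins. The more abundant of its 2 relatives, TraesCS3D02G158600, had 8.29, 5.47 and 4.29 CPM in 2N against 4.70, 8.20 and 5.76 CPM in 0N. The groups overlapped widely, with a log2 fold change of -0.05 ± 0.28 (adjusted p = 0.941, edgeR), and its sister on 3A did not pass either.

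The tested cold-regulated genes all lie on chromosome group 2, most of them with neighbouring identifiers. Of the 20 genes, 10 were tested, 1 fell and the other 9 did not pass. The gene that fell was TraesCS2B02G483000, similar to barley BLT14, with 20.3, 22.2 and 23.5 CPM in 2N against 29.7, 24.8 and 33.3 CPM in 0N (log2 fold change -0.41 ± 0.11, adjusted p = 0.0237, edgeR). Its lowest 0N library, replicate 2, was only slightly above its highest 2N library. Leaving out 0N replicate 1 (adjusted p = 0.0699), 0N replicate 3 (0.1) or 2N replicate 1 (0.102) ended the call, within a range of 0.00459 to 0.102. TraesCS2B02G482800, also similar to BLT14, had 15.9, 15.2 and 9.98 CPM in 2N against 11.6, 9.16 and 10.6 CPM in 0N. Its log2 fold change of 0.39 ± 0.17 did not pass (adjusted p = 0.149, edgeR) but passed without 2N replicate 3 (0.0131), the lowest of its 2N libraries, within a range of 0.0131 to 0.397. TraesCS2D02G461400, similar to Cold-regulated protein 2, had 2.76, 2.27 and 3.21 CPM in 2N against 4.82, 2.65 and 5.05 CPM in 0N. Its 0N replicate 2 fell among the 2N values, and the log2 fold change of -0.61 ± 0.24 passed only without that library (adjusted p = 0.113 with it and 0.0115 without, within a range of 0.0115 to 0.315, edgeR). The most abundant of the class on the TPM scale, TraesCS2B02G482300, had 50.3, 49.3 and 58.0 CPM in 2N against 39.1, 47.7 and 47.8 CPM in 0N. These groups did not overlap by a narrow margin, and the log2 fold change of 0.23 ± 0.11 did not pass (adjusted p = 0.18, edgeR). The 5 genes similar to BLT14 summed to 163 ± 5.14 CPM in 2N and 177 ± 5.88 CPM in 0N. The 12 similar to Cold-regulated protein 2 summed to 91.5 ± 8.14 CPM in 2N and 81.2 ± 6.07 CPM in 0N.

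Bread wheat is hexaploid, with A, B and D copies of most genes. Of the 14 genes that rose, 4 carried an A code, out of 10 tested, 4 a B code, out of 13, and 6 a D code, out of 15. The 4 that fell were 2 of B and 2 of D. Among the 3 COR410 copies, the 6A copy held 18.2 ± 0.17% of the summed TPM in 2N and 19.3 ± 0.34% in 0N, ranges that did not overlap. The 6B copy held 44.7 ± 1.02% in 2N and 44.2 ± 0.49% in 0N. Of the HIRD11 transcripts, the 4B copy held 35.4 ± 0.65% in 2N and 33.2 ± 0.99% in 0N, while the 4D copy held 53.9 ± 0.62% in 2N and 55.9 ± 0.59% in 0N, and neither overlapped between groups. The division of At5g17165 among 2A, 2B and 2D averaged 36.4%, 17.2% and 46.5% in 2N and 33.8%, 17.4% and 48.9% in 0N. Each set thus kept the order of its copies in both groups. The shares of the other copies in these sets overlapped between groups, and shares within a set are not independent. These shares are descriptions. They also depend on the transcript lengths used in scaling and, for sequences this similar, on how reads were assigned.

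**Figure D4:**
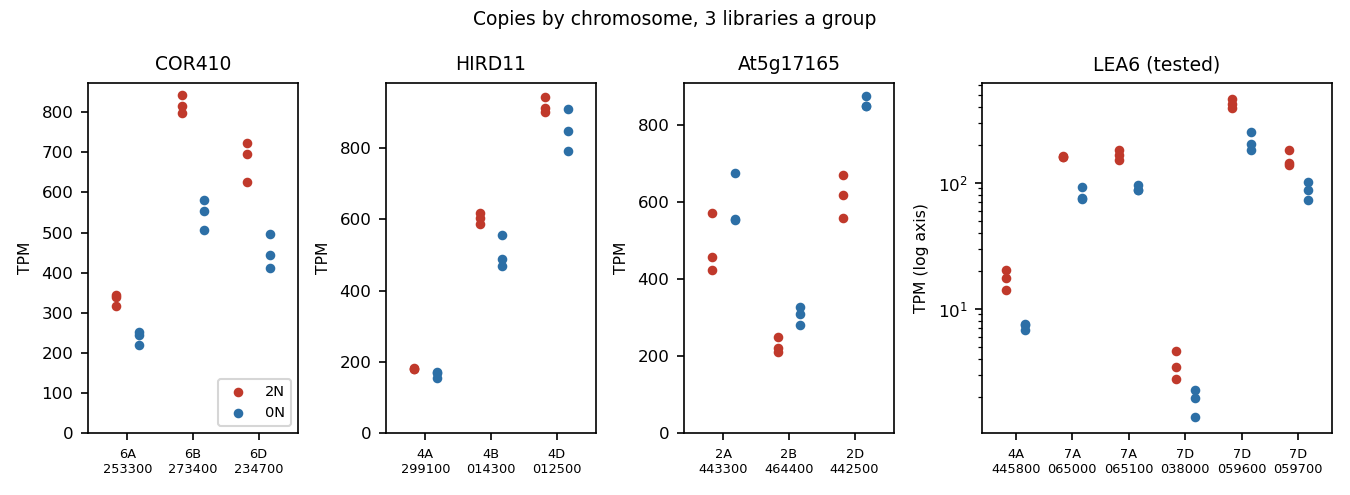
TPM of the copies of COR410, HIRD11, At5g17165 and the 6 tested LEA6 genes, with 1 point per library, 2N left and 0N right at each copy, linear axes from 0 in the first 3 panels and a log axis in the fourth. The COR410 points of 2N lie above those of 0N in each copy, the At5g17165 points of 2B and 2D lie below, and the HIRD11 groups overlap at 4D.

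Other genes of ABA, cold and water deficit were counted in the same fit, in 7 lists that hold 227 tested genes. Of these, 19 rose in 2N, or 8.37%, near the 7.57% of all tested genes that rose. Another 43 fell, or 18.9% against 7.93% of all tested genes, and the 43 became 24 without 2N replicate 3. In the list of ABA breakdown and synthesis, 3 of 11 rose and 4 fell, or 27.3% and 36.4%, against 7.57% and 7.93% of all tested genes. The 3 were all similar to ABA 8'-hydroxylase, and the fallen genes belonged to zeaxanthin epoxidase and NCED3, which act in synthesis. The NCED3 gene was rare, at 0.137 TPM in 2N and 0.413 TPM in 0N. None of the 4 tested genes similar to NCED1 passed, with log2 fold changes from -1.06 to 0.44. The 4 that fell in this list became 2 when 0N replicate 1, 0N replicate 2 or 2N replicate 2 was left out. They became 1 when 2N replicate 3 was left out or with DESeq2. In ABA perception and signalling, 7 of 83 rose, or 8.43%, near the share over all tested genes. Another 13 fell, or 15.7%, against 7.93% of all tested genes. The 7 were similar to the receptor PYL4, whose 11 tested genes summed to 765 TPM in 2N and 443 TPM in 0N. Among the fallen were 3 of 6 genes similar to protein phosphatase 2C 50, a negative regulator of ABA signalling in rice. Their sum was 16.3 TPM in 2N and 25.6 TPM in 0N. Phosphatases 2C 6 and 2C 30 and the kinases SAPK2, SAPK7 and SAPK10 had 1 fallen gene each. So did ABI5-like protein 3 and the bZIP factors 23 and TRAB1, while bZIP factor 46 had 2. The 13 became 8 without 2N replicate 3 and 24 with library totals.

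DREB and CBF factors bind the dehydration-responsive element upstream of many cold- and drought-induced genes. Of 32 tested, 5 rose and 10 fell, or 15.6% and 31.2%, against 7.57% and 7.93% of all tested genes, with the 5 becoming 3 without 0N replicate 1 and 3 without 2N replicate 3. Of the 4 genes similar to DREB1A, 3 rose and 1 fell. TraesCS5D02G318900 averaged 18.1 ± 5.83 CPM in 2N, against 2.88 ± 0.57 CPM in 0N (log2 fold change 2.66 ± 0.28, adjusted p = 0.000459, edgeR), and TraesCS5B02G311400 averaged 3.81 ± 0.56 CPM in 2N, against 8.82 ± 2.04 CPM in 0N (log2 fold change -1.21 ± 0.18, adjusted p = 0.000386, edgeR). Of the 12 genes similar to DREB1B, 1 rose and 5 fell.

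Galactinol synthase makes the galactosyl donor for raffinose, a sugar that accumulates with LEA proteins in seeds and in the cold. In the list of raffinose and galactinol synthesis, 1 of 27 rose, or 3.70%, below the 7.57% of all tested genes. Another 6 fell, or 22.2%, against 7.93% of all tested genes. Of the 9 genes similar to galactinol synthase 2, 5 fell, among them TraesCS2B02G109800 with 14.02 ± 1.20 CPM in 2N against 31.4 ± 1.54 CPM in 0N (log2 fold change -1.16 ± 0.10, adjusted p = 2.34e-06, edgeR). The 6 became 2 without 2N replicate 3, and the 1 became 3 without 0N replicate 2 and 2 without the filter on low counts. The list of oleosins, caleosins, seed peroxiredoxin and the ABA-induced membrane protein HVA22 held no tested gene named as a peroxiredoxin. Of its 59 tested genes, 1 rose and 10 fell, or 1.69% and 16.9%, against 7.57% and 7.93% of all tested genes. These 10 became 6 without 2N replicate 3, 18 with library totals, 16 with limma on TPM and 7 with DESeq2. The 1 became 2 without 0N replicate 2 or without the filter, and 0 with DESeq2 (1 at an unadjusted p under 0.05) or a minimum count of 50. Small heat shock proteins, molecular chaperones of stressed and seed tissue, had 1 rise among 9 tested genes, or 11.1%, against 7.57% of all tested genes. For proline synthesis, the most abundant genes of the pyrroline-5-carboxylate synthase, on 1A, 1B and 1D, had log2 fold changes of 0.07, -0.06 and -0.04. The rare TraesCS3A02G363700 averaged 1.53 ± 0.50 CPM in 2N, against 0.577 ± 0.30 CPM in 0N. It was the 1 of 6 genes that rose, or 16.7%, against 7.57% of all tested genes. That count became 0 when 0N replicate 1, 0N replicate 3, 2N replicate 1 or 2N replicate 3 was left out, and 2 when 2N replicate 2 was (edgeR in each case, with 2 at an unadjusted p under 0.05 on all libraries, 1 call by DESeq2 and 0 by limma on TPM).

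The libraries held 17234841 to 17645560 counts in 2N and 16208306 to 16426359 in 0N, with 69457 to 70776 genes detected in each. Spearman correlations of expression were 0.980 to 0.986 between libraries of a group and 0.951 to 0.960 between groups. The values of 0N replicate 2 with the 2N libraries, 0.958 to 0.960, were above those of 0N replicate 1, 0.951 to 0.952. The tissue label reads root, while another label of every sample names leaf tissue. Markers of the root endodermis, the Casparian strip membrane proteins, summed to 195 to 247 TPM in 2N and 145 to 175 TPM in 0N. Of their 6 tested genes 4 rose, or 66.7% against 7.57% of all tested genes. The most abundant, TraesCS2D02G379300, averaged 44.1 ± 3.85 CPM in 2N, against 27.9 ± 4.60 CPM in 0N (log2 fold change 0.66 ± 0.12, adjusted p = 0.00145, edgeR). The photosynthesis genes summed to 160 to 309 TPM in 2N and 298 to 669 TPM in 0N, with 17 genes at 0 in every library. Of the 68 tested, 23 fell, or 33.8% against 7.93% of all tested genes, and the others did not pass. TraesCS5D02G169900 for the small chain of Rubisco had a log2 fold change of -0.86 ± 0.52 (adjusted p = 0.382, edgeR). Seed storage and embryo genes summed to 43.6 to 48.0 TPM in 2N and 55.7 to 71.1 TPM in 0N, with 55 of 87 at 0 in every library. In edgeR's test none of their 9 tested genes passed, 3 were lower at an unadjusted p under 0.05, and DESeq2 called 0 and limma on TPM 1 lower. The most abundant, TraesCS7B02G154600 for an oleosin, averaged 13.4 ± 2.18 CPM in 2N, against 16.2 ± 0.57 CPM in 0N. The part of any of these cell types in the LEA and dehydrin results was not tested.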

How the data were processed

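The deposited table holds estimated counts and TPM for each of the 6 root libraries, not pooled. The authors deposited expected counts per gene, not normalized, of which 45.1% of values are not whole (tolerance 1e-06). They also deposited TPM values, scaled by length and library, per the file headers. HISAT and Bowtie2 are named without versions in the submitters' processing notes. Not given in the sources used here are the counting program, genome build, annotation and strand setting, and 20 other value columns were not used. Of the identifiers, 0 matched the RefSeq gene table, so no coordinates or sequences are printed, and chromosomes are read from the identifiers.

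Expected counts were rounded. filterByExpr (minimum count 10, minimum total 15) kept 54313 of 78172 genes with any count. Libraries were scaled by TMM, and 2N was compared with 0N by edgeR's quasi-likelihood test (robust, 2-sided), fitted to the whole table with Benjamini-Hochberg adjustment and a threshold of 0.05. Log2 fold changes are 2N over 0N. Each SE is the size of the log2 fold change over the square root of F and is approximate. CPM use TMM-scaled library sizes, and floors of 3 counts cover counting error only.

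The genes, classes and lists were chosen with earlier results of these data known, so no set test was run and nothing was adjusted over a list. LEA31, planned under group 3, was placed with D-34. Named genes were every called gene, the most abundant tested gene of each class and marker list, and the 3 uncalled genes with the smallest adjusted p. All tested genes of the classes appear in the plots, and a few genes of the other lists were named after their values were seen. Of the 38 tested genes, 17 had a fractional count in some library, and copies of a hexaploid genome share reads. Same-numbered replicates did not deviate together, so the fit has no block. Alternatives were library totals, no filter, a minimum count of 50, a replicate block, leaving out each library, DESeq2, and limma-trend on log2(TPM + 0.5). Tools were edgeR 4.0.16, DESeq2 1.42.0 and limma 3.58.1 in R 4.3.3, with plots by matplotlib 3.10.9.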

Additional observations from a re-analysis of the deposited data

How the results depend on the processing

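Of the 38 tested genes, the number that rose was 14 in the reported fit, 11 to 14 under other scalings, filters and tools, and 10 to 15 with each library left out. The number that fell was 4, and 1 to 5 with each library left out. With the replicate number as a block, 12 rose and 3 fell, and the calls on TraesCS2B02G464400, TraesCS4B02G014300 and TraesCS7D02G038000 were lost (adjusted p = 0.0908, 0.0671 and 0.0512, edgeR). No pairing by number was seen, as same-numbered deviations correlated at -0.01, -0.11 and 0.03, but 3 libraries a group cannot exclude it. The median log2 fold change of 0.22 was 0.13 with library totals, 0.12 without a filter, 0.15 with limma on TPM, 0.47 without the cold-regulated proteins, and 0.16 to 0.27 with each library left out. Removing 10 tested genes makes the rise without cold-regulated proteins, and untested rare genes enter without a filter; the cause of the other shifts was not tested. The log2 ratio of summed levels was -0.02 for the cold-regulated class and -0.11 with library totals, and 0.54 for dehydrins and 0.37 on summed TPM. Of the other lists, 43 genes fell, and 24 to 41 with each library left out. No called gene changed sign under any of these alternatives. Low counts limit what could be called, and 83 genes were not tested.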

Other observations

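Some LEA proteins carry other names and were not reached by the search, among them HVA1 of barley, a group 3 LEA protein induced by ABA, the Em proteins of group 1 and seed maturation proteins. This search was added after the descriptions were read. It gave 23 more genes, of which 7 were tested, all similar to HVA1, and 1 of these rose while 1 fell. TraesCS4B02G332700 averaged 15.7 ± 1.75 CPM in 2N, against 6.57 ± 0.98 CPM in 0N (log2 fold change 1.25 ± 0.13, adjusted p = 1.7e-05, edgeR). Its identifier precedes that of TraesCS4B02G332800, the wheat group 3 gene whose log2 fold change of 0.33 ± 0.14 did not pass. TraesCS1D02G369300 averaged 4.82 ± 0.81 CPM in 2N, against 10.1 ± 0.95 CPM in 0N (log2 fold change -1.06 ± 0.15, adjusted p = 0.000174, edgeR). Its identifier follows that of TraesCS1D02G369200, the group 3 gene that fell. With these genes added, 15 of 45 tested genes rose and 5 fell, beside 7.57% and 7.93% of all tested genes of the table.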
